A study of Homo sapiens with 6 samples.

Results

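The urokinase plasminogen activation system is described here by 6 genes of the deposited count table, chosen by name out of 58733 entries. They encode the activators PLAU (urokinase) and PLAT (tissue plasminogen activator), the urokinase receptor PLAUR, the serpin inhibitors SERPINE2 and SERPINB2, and ANXA2, an annexin that binds plasminogen at the cell surface. Each name was found as a single entry, and 5 of the 6 had enough reads to be tested. MDA-MB-231, an established line from a breast tumour that lacks hormone receptors and HER2 amplification, was grown in medium with serum. For 3 libraries (a, b and c) the cells had received 2 µM Azeliragon, an antagonist of RAGE, for 72 h. For the other 3 (also a, b and c) they had received DMSO, the solvent, for the same time. The results concern 1 cell line at 1 dose and 1 time.

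Urokinase is secreted as an inactive precursor that binds its receptor on the cell surface, where it cleaves plasminogen to plasmin. Plasmin degrades fibrin and matrix proteins, and it activates growth factors and metalloproteinases. Serpins trap the activators in inactive complexes, which are cleared through receptors of the LDL receptor family. In breast cancer the system is known for its part in invasion. Plasminogen itself comes mainly from the liver and reaches tumour cells through plasma or serum.

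Library totals were 41455979 to 43772671 counts with Azeliragon and 43091452 to 44313584 in DMSO. Levels are CPM, read counts scaled to the TMM-corrected library total. Fold changes come from the edgeR quasi-likelihood fit, Azeliragon over DMSO, and a gene is called where its Benjamini-Hochberg adjusted p over 16081 genes was under 0.05. Nothing in the labels shows whether libraries of a condition were separate cultures, so p-values measure only how these libraries vary, and that variation may be technical. The first principal component, with 36.8% of the variance, put the Azeliragon libraries at -24.2 to -20.1. DMSO b lay at 32.2, DMSO c at 35.7 and, far from those, DMSO a at -0.94. On the second component DMSO a and b lay at 20.8 and 23.6 and DMSO c at -29.5. The Azeliragon libraries lay there at -10.7 to -1.92. The number of genes called was 1009 with all 6 libraries. Leaving out DMSO a gave 3916, which was 23.7% of the genes tested in that fit. Leaving out DMSO b gave 473 (2.86%), and leaving out DMSO c gave 819 (4.94%). Leaving out Azeliragon a, b or c gave 445, 500 or 448 (2.68%, 3.01% or 2.70%). In bulk RNA, less transcript per cell and fewer expressing cells cannot be told apart. Of 5 markers of the line, VIM, CD44, FN1 and AXL were abundant, AXL rose (log2 fold change 0.26; edgeR adjusted p = 0.0297), and SPARC had 0.59 CPM with Azeliragon and 0.34 CPM in DMSO. The 4 leukocyte markers summed to 0.844 to 1.08 CPM with Azeliragon and 1.24 to 1.60 CPM in DMSO, with CD3E at 0. The 5 epithelial or hormone receptor markers summed to 30.1 to 32.4 CPM with Azeliragon and 34.5 to 38.3 CPM in DMSO, with PGR at 0. Most of this was GATA3, at 23.2 CPM with Azeliragon and 27.6 CPM in DMSO, and EPCAM, at 8.14 and 8.97 CPM. Neither was called. ESR1 and CDH1 had too few reads to be tested. ESR1 had 10, 9 and 14 reads in Azeliragon a, b and c, against 0, 0 and 5 in DMSO a, b and c. Its mean was 0.26 CPM with Azeliragon and 0.039 CPM in DMSO. CDH1 had 1 read, in Azeliragon a. The 3 endothelial markers summed to 0.605 to 0.844 CPM with Azeliragon and 0.324 to 0.649 CPM in DMSO, and the 3 fibroblast markers, with PDGFRA at 0, to 0.535 to 1.08 CPM with Azeliragon and 0.598 to 0.718 CPM in DMSO. The part of these markers in the results was not tested.

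Among the 5 tested genes PLAU fell with Azeliragon, and PLAT, PLAUR, SERPINE2 and ANXA2 were not called. Over all tested genes 6.27% were called, 3.53% as lower and 2.75% as higher. After removal of GC content and length trends, 967 genes rose and 764 fell, against 442 and 567 in the fit without that correction. Per kilobase of the main transcript, the levels with Azeliragon were 1270 CPM for ANXA2, 434 for PLAU, 128 for PLAUR, 101 for PLAT and 17.4 for SERPINE2. In DMSO they had the same order, at 1212, 670, 119, 86.9 and 16.6 CPM per kilobase. SERPINB2 came last, at 0.026 CPM per kilobase with Azeliragon and 0.021 in DMSO. Within each condition the libraries of neighbours in this order did not overlap. By level per kilobase over all 6 libraries, ANXA2 ranked 49, PLAU 115, PLAUR 640, PLAT 854 and SERPINE2 3964 among 16068 tested genes with a known length.

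**Figure D1:**
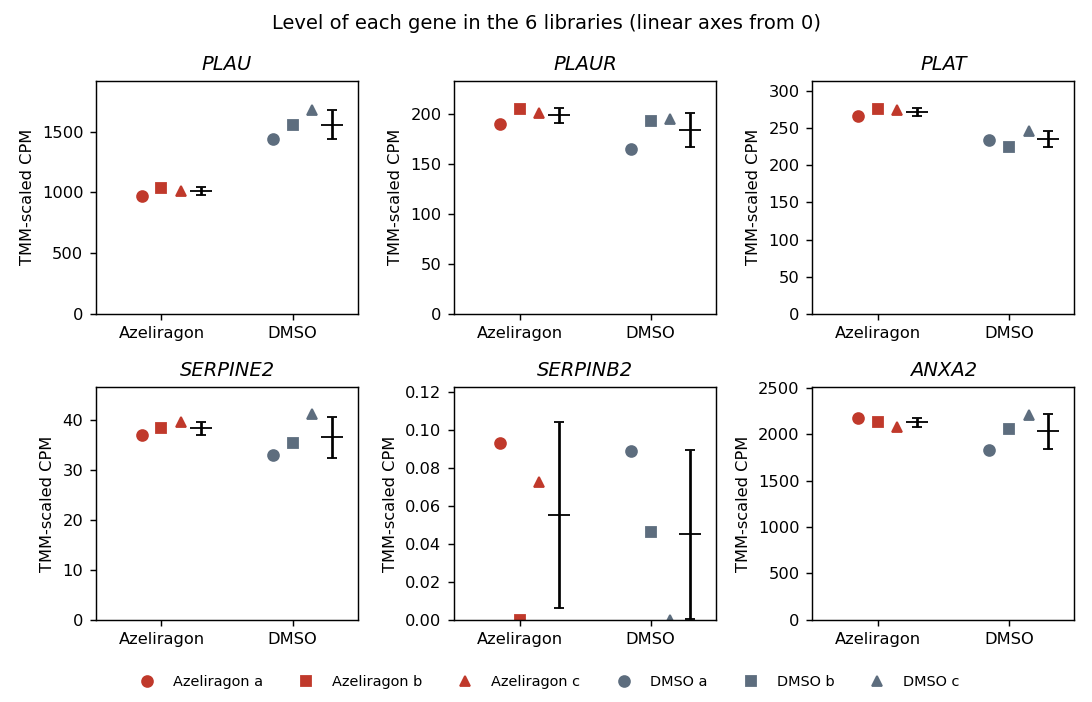
TMM-scaled CPM of the 6 genes in each library, with Azeliragon left of DMSO in each panel and the mean ± SD (n = 3) beside the points. PLAU lay between 972 and 1038 CPM with Azeliragon and between 1437 and 1676 CPM in DMSO; PLAT was separated in the other direction, and the remaining 4 genes overlapped.

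Sequence before a RefSeq start of 3 of the genes is shown because they span the levels and responses. PLAU was abundant and fell, ANXA2 was the most abundant and was not called, and SERPINB2 was nearly silent. The bases precede a RefSeq start on GRCh38.p14, leaving out bases that GENCODE places in an untranslated region of the same strand. They are chr10:73910882-73911103 on the plus strand for PLAU, chr15:60398044-60398236 on the minus strand for ANXA2 and chr18:63887455-63887699 on the plus strand for SERPINB2. All 3 windows lie inside the GENCODE span of their gene, downstream of its first annotated base. The PLAU window also lies within an untranslated region of C10orf55 on the opposite strand. Capitals mark letters that match, on either strand, the AP-1 motif TGANTCA, the GC box GGGCGG, the TATA box TATAAA, the E-box form CAGGTG, the ETS motif CCGGAAG or a NF-kB motif. The motifs were chosen after the data were seen.
PLAU: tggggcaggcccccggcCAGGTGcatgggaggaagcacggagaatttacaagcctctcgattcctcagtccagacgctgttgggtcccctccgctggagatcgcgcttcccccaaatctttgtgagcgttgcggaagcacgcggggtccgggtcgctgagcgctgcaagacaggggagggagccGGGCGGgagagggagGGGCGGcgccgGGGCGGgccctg
ANXA2: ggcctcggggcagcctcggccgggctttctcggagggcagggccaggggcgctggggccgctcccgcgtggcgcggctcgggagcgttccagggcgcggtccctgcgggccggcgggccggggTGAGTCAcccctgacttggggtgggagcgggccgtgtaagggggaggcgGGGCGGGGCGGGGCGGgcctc
SERPINB2: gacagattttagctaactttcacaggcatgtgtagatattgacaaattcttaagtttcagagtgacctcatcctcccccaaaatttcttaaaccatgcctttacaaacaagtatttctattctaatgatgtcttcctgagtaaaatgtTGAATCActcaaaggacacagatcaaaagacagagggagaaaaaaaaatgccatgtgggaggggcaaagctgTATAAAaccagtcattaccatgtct
The PLAU stretch held 1 E-box form and 3 GC boxes. The ANXA2 stretch held 1 AP-1 match and 3 GC boxes that run into each other. The full 250 bases before that ANXA2 start also held 1 TATA match, which the printed stretch leaves out. The SERPINB2 stretch held 1 AP-1 and 1 TATA match. Of 35116 windows of 250 bases before RefSeq starts, 6.57% held the AP-1 motif, 42.6% a GC box, 10.7% the TATA box, 17.5% this E-box form, 8.52% the ETS motif and 5.07% the NF-kB motif. The 250 bases before another RefSeq start of PLAU, at 73910610, held none of the 6 motifs. A match describes letters only.

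PLAU lies on chromosome 10 at 73909177 to 73917497 (plus strand, GRCh38, GENCODE 29) and encodes the protease that converts plasminogen on receptor-bearing cells. It had 972, 1038 and 1013 CPM in Azeliragon a, b and c, against 1437, 1551 and 1676 CPM in DMSO a, b and c. All 3 Azeliragon libraries lay below all 3 DMSO libraries, as for 13.2% of tested genes. The mean was 1008 ± 33 CPM with Azeliragon and 1555 ± 119 CPM in DMSO (SD, n = 3 each). This is a 1.54-fold fall, with a log2 fold change of -0.63 (SE 0.07, 95% interval -0.77 to -0.48) and an edgeR adjusted p of 0.000183. A called fall of at least 1.5-fold was found for 1.64% of tested genes. Among the 567 genes that fell, whose median fall was 1.48-fold, PLAU ranked 6 by mean CPM. Its reads numbered 41777 to 45272 with Azeliragon and 64889 to 72295 in DMSO.

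C10orf55 lies on the strand opposite PLAU and shares 916 exon bases with it. It fell too, at 8.20 ± 0.45 CPM with Azeliragon and 11.6 ± 1.7 CPM in DMSO (SD, n = 3 each), with a log2 fold change of -0.50 (SE 0.12) and an edgeR adjusted p of 0.0300. That call was lost without Azeliragon a, b or c or DMSO b, where the adjusted p reached 0.151. The strand setting of the counting is not given in the sources used here, so reads of the 2 genes may be exchanged. The reads of C10orf55 were 0.782% to 0.857% of those of PLAU with Azeliragon and 0.581% to 0.854% in DMSO.

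PLAT, on chromosome 8 at 42175233 to 42207724 (minus strand), encodes the activator best known for dissolving fibrin clots. It had 266, 276 and 275 CPM in Azeliragon a, b and c, against 235, 224 and 246 CPM in DMSO a, b and c. Every Azeliragon library was above every DMSO library, as for 12.1% of tested genes. The means were 272 ± 5.2 CPM with Azeliragon and 235 ± 11 CPM in DMSO (SD, n = 3 each), a log2 fold change of 0.21 (SE 0.06, 95% interval 0.08 to 0.34). The edgeR adjusted p of 0.0623 missed the threshold, and the unadjusted p was 0.00441. PLAT was called in 7 of 15 other settings and not in 8. DESeq2 called it (adjusted p = 0.0315), as did edgeR without DMSO a (adjusted p = 0.00335) or DMSO c (adjusted p = 0.0378). Those fits called 8.84%, 23.7% and 4.94% of the genes they tested. Its log2 fold change lay between 0.18 and 0.25 in all 15.

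**Figure D2:**
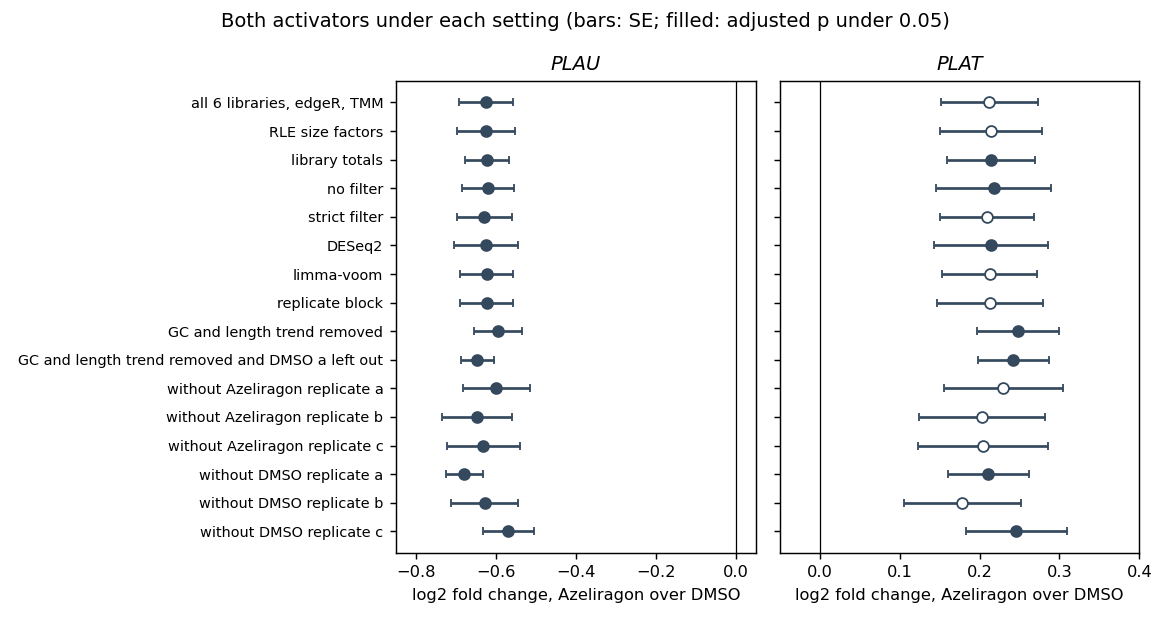
Log2 fold change, Azeliragon over DMSO, of PLAU (left) and PLAT (right) with all 6 libraries and under 15 other settings. Bars are standard errors, and filled points had an adjusted p under 0.05. PLAU was called throughout, between -0.68 and -0.57, and PLAT in 7 of the 15 other settings.

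The ratio of PLAU to PLAT was lower in the Azeliragon libraries. PLAU, which fell, is the numerator of each ratio reported here, so the ratios are not results separate from that fall. Per kilobase, PLAU exceeded PLAT 4.25, 4.39 and 4.30 times in Azeliragon a, b and c, against 7.14, 8.06 and 7.94 times in DMSO a, b and c. The Azeliragon ratios all lay below the DMSO ratios. PLAU made up 81.0% to 81.4% of the per-kilobase sum of both activators with Azeliragon and 87.7% to 89.0% in DMSO. That sum was 517 to 549 CPM per kilobase with Azeliragon and 706 to 813 in DMSO. The log2 ratio averaged 2.11 ± 0.02 with Azeliragon and 2.94 ± 0.10 in DMSO (SD, n = 3 each), a difference of -0.84. The 2-sided exact permutation p was 0.1, the smallest that 3 against 3 libraries can give.

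PLAUR, on chromosome 19 at 43646095 to 43670547 (minus strand), encodes the lipid-anchored receptor that holds urokinase at the cell surface. It had 191, 205 and 201 CPM in Azeliragon a, b and c, against 165, 193 and 195 CPM in DMSO a, b and c. The groups overlapped, and DMSO a was the lowest library. Its log2 fold change of 0.11 (95% interval -0.05 to 0.27) had an edgeR adjusted p of 0.454, at 199 ± 7.4 CPM with Azeliragon and 184 ± 17 CPM in DMSO (SD, n = 3 each). Without DMSO a it was 0.03. The interval does not reach a fall of the size measured for PLAU. Per kilobase, PLAU exceeded its receptor 3.40, 3.37 and 3.36 times in Azeliragon a, b and c, against 5.81, 5.35 and 5.72 times in DMSO a, b and c. This log2 ratio was lower by 0.74 with Azeliragon (difference -0.74; 2-sided exact permutation p = 0.1, the smallest possible).

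**Figure D3:**
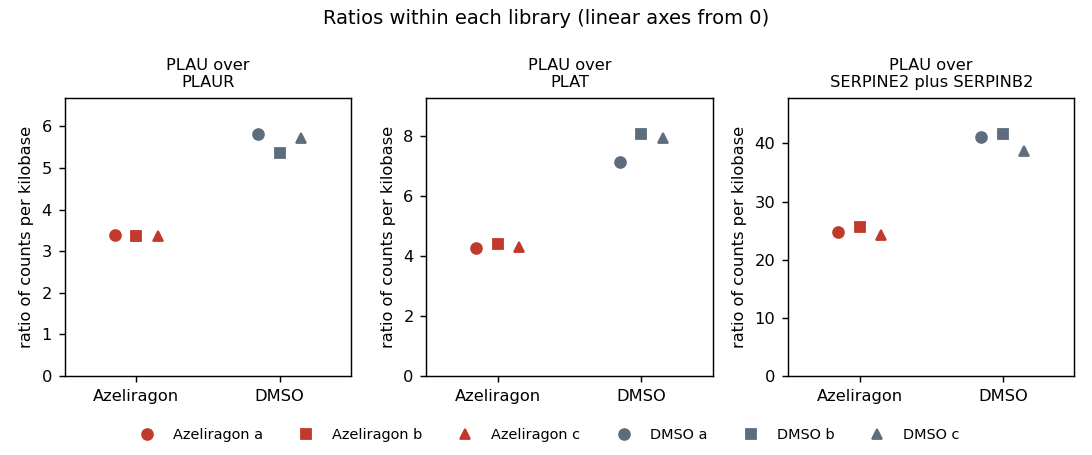
Ratio of PLAU to PLAUR, to PLAT and to the sum of SERPINE2 and SERPINB2 in each library, in counts per kilobase of the main transcript, with Azeliragon left of DMSO. In each panel, where PLAU is the numerator, the 3 Azeliragon libraries lie below the 3 DMSO libraries. The mean ratio to PLAUR was 3.38 with Azeliragon and 5.63 in DMSO.

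SERPINE2, on chromosome 2 at 223975112 to 224039319 (minus strand), encodes protease nexin-1, which inhibits urokinase, tissue plasminogen activator and thrombin. It had 37.0, 38.3 and 39.4 CPM in Azeliragon a, b and c, against 33.0, 35.2 and 41.04 CPM in DMSO a, b and c. The Azeliragon values lay inside the range of the DMSO values. The means were 38.2 ± 1.2 CPM with Azeliragon and 36.4 ± 4.2 CPM in DMSO (SD, n = 3 each). The log2 fold change of 0.07 (95% interval -0.13 to 0.27) had an edgeR adjusted p of 0.715. It was 0.0033 without DMSO a and 0.16 without DMSO c, and not called in either fit. PLAU exceeded the sum of SERPINE2 and SERPINB2 24.8, 25.6 and 24.2 times per kilobase in Azeliragon a, b and c, against 41.1, 41.6 and 38.6 times in DMSO a, b and c. The log2 ratio differed by -0.70 (2-sided exact permutation p = 0.1, the smallest possible). Nearly all of that sum was SERPINE2.

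SERPINB2, on chromosome 18 at 63871692 to 63903890 (plus strand), encodes an inhibitor of urokinase that inflammation induces in other cells. It had 4, 0 and 3 reads in Azeliragon a, b and c, against 4, 2 and 0 reads in DMSO a, b and c. The sums were 7 reads with Azeliragon (exact Poisson 95% interval 2.81 to 14.4) and 6 reads in DMSO (2.20 to 13.1). These sums were too low for the main test, and the intervals cover counting error only. A limit of 3 reads in a library is 0.0688 to 0.0723 CPM with Azeliragon and 0.0665 to 0.0695 CPM in DMSO. SERPINB10, which shares 547 exon bases with SERPINB2 on the same strand, had 0 reads in all 6 libraries.

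ANXA2, on chromosome 15 at 60347134 to 60402883 (minus strand), encodes a membrane-binding protein that, with S100A10, docks plasminogen and tissue plasminogen activator. It had 2173, 2131 and 2082 CPM in Azeliragon a, b and c, against 1831, 2056 and 2207 CPM in DMSO a, b and c. DMSO c was the highest of the 6 libraries and DMSO a the lowest, so the groups overlapped. The means were 2129 ± 45 CPM with Azeliragon and 2031 ± 189 CPM in DMSO (SD, n = 3 each), and the edgeR adjusted p was 0.645. The log2 fold change was 0.07 (95% interval -0.09 to 0.22), and -0.002 without DMSO a. The processed pseudogene ANXA2P2 had 0.284% to 0.309% as many reads as ANXA2 with Azeliragon and 0.298% to 0.334% in DMSO. How reads matching several places were counted is not given in the sources used here, so ANXA2 may lack reads shared with its pseudogenes.

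The spread between libraries was smaller with Azeliragon for each of the 5 tested genes, with coefficients of variation of 1.91% to 3.74% with Azeliragon and 4.62% to 11.4% in DMSO. The same held for 74.1% of the 10187 genes that averaged 5 CPM or more, whose median was 4.56% with Azeliragon and 8.31% in DMSO. DMSO a was the lowest DMSO library for PLAU, PLAUR, SERPINE2 and ANXA2, and for 41.7% of those genes. DMSO a was the lowest or the highest DMSO library for 82.6% of those genes. DMSO c was the highest DMSO library for all 5 tested genes. The share of all genes with DMSO c highest was not counted, so nothing particular to the 5 is read from this.

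Other proteins of the pathway were read from lists made by function. Of 13 genes for plasminogen and proteases that form plasmin or activate urokinase, 6 were tested, 2 fell and 4 were not called (median log2 fold change -0.08, against -0.004 for all tested genes). None rose by edgeR or limma-voom, 1 had an unadjusted p under 0.05 as higher, and DESeq2 called 1 as higher, PLAT. Besides PLAU the gene that fell was CTSB, a lysosomal protease that can activate pro-urokinase. It had 280 ± 2.9 CPM with Azeliragon and 358 ± 25 CPM in DMSO (SD, n = 3 each; log2 fold change -0.36, SE 0.07; edgeR adjusted p = 0.00629). Without Azeliragon a, b or c the CTSB call was lost (edgeR adjusted p up to 0.0585) and 1 gene of the list was called. CTSL and F12 were not called (edgeR adjusted p = 0.473 and 0.615). F12 shares 399 exon bases with GRK6 on the opposite strand, which had 26698 reads over the 6 libraries where F12 had 1440, so its count is uncertain. PLG, which encodes plasminogen, had 0 reads in all 6 libraries.

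Of 8 inhibitors of plasminogen activators or plasmin reported here, 4 were tested and edgeR called 0. At an unadjusted p under 0.05, 0 were higher and 2 were lower, and DESeq2 and limma-voom each called 1 as lower. That gene, SERPINA5, encodes protein C inhibitor, which also inhibits urokinase, and was named after its values were seen. It had 1, 13 and 7 reads in Azeliragon a, b and c, against 44, 25 and 27 reads in DMSO a, b and c. All 3 Azeliragon libraries were below all 3 DMSO libraries, and the edgeR adjusted p was 0.0534. Without DMSO a edgeR called SERPINA5, and without any other single library it called 0 genes of the list. The fit without DMSO a called 23.7% of all genes tested. The median log2 fold change of the 4 was -0.79, and SERPINI1, SERPINF2 and SERPINA5 averaged at most 1.02 CPM in either condition.

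Of 10 receptors and surface proteins that bind urokinase or plasminogen, 9 were tested, 1 fell and 8 were not called (median log2 fold change -0.09). None rose by edgeR or limma-voom, 1 had an unadjusted p under 0.05 as higher, and DESeq2 called 1 as higher, the receptor IGF2R, named after its values were seen. The gene that fell was S100A10, the partner of ANXA2 at the membrane, at 380 ± 16 CPM with Azeliragon and 489 ± 62 CPM in DMSO (SD, n = 3 each; log2 fold change -0.36, SE 0.09; edgeR adjusted p = 0.0282). Its call was lost without Azeliragon a, b or c, DMSO b or DMSO c (edgeR adjusted p up to 0.173), each of which left 0 calls in the list. Without DMSO a 5 genes were called, in a fit that called 23.7% of all genes tested. ENO1, a glycolytic enzyme that also binds plasminogen on the cell surface, had 3570 ± 93 CPM with Azeliragon and 3800 ± 216 CPM in DMSO (log2 fold change -0.09; edgeR adjusted p = 0.453). Without DMSO a ENO1 was among the 5 called, as lower (log2 fold change -0.14; edgeR adjusted p = 0.0173).

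Of 18 clearance receptors and partners of the urokinase receptor, 15 were tested, 2 rose, 3 fell and 10 were not called (median log2 fold change -0.13). ITGA3, an integrin chain that associates with the urokinase receptor, had 1434 ± 31 CPM with Azeliragon and 1191 ± 75 CPM in DMSO (SD, n = 3 each; log2 fold change 0.27; edgeR adjusted p = 0.0246). EGFR, which cooperates with the urokinase receptor in signalling, had 174 ± 8.8 CPM with Azeliragon and 116 ± 28 CPM in DMSO (log2 fold change 0.58; edgeR adjusted p = 0.0174). MRC2, the collagen receptor Endo180, fell 1.28-fold (edgeR adjusted p = 0.00547), and the integrin chain ITGB5 fell 1.25-fold (0.00899). FPR1, a formyl peptide receptor, had 1.32 ± 0.34 CPM with Azeliragon and 3.11 ± 0.52 CPM in DMSO, a 2.36-fold fall (edgeR adjusted p = 0.00757) called whichever library was left out. The call of MRC2 was lost without Azeliragon a (edgeR adjusted p = 0.0506), that of ITGB5 without Azeliragon a, b or c (up to 0.0847) and that of EGFR without these or DMSO b (up to 0.116). The call of ITGA3 was lost without any library except DMSO a (up to 0.173). Calls in the list numbered 8 with DMSO a left out, 3 with DMSO b left out and 2 with any 1 Azeliragon library left out. Over all tested genes these fits called 23.7%, 2.86% and 2.68% to 3.01%.

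Of 11 proteins that plasmin or urokinase can activate, 8 were tested, 2 rose, 1 fell and 5 were not called (median log2 fold change 0.21). The collagenase MMP1 had 7.06 ± 0.90 CPM with Azeliragon and 1.35 ± 0.15 CPM in DMSO (SD, n = 3 each), a log2 fold change of 2.38 (SE 0.17; edgeR adjusted p = 1.14e-05) called whichever library was left out. TGFB2 rose 1.37-fold, at 21.8 ± 1.6 CPM with Azeliragon and 15.9 ± 2.4 CPM in DMSO (edgeR adjusted p = 0.0356), a call lost without any library except DMSO a (up to 0.177). TGFB1 fell 1.35-fold, at 113 ± 7.0 CPM with Azeliragon and 153 ± 7.9 CPM in DMSO (edgeR adjusted p = 0.00290), and stayed called without each library. TGFB1 shares 215 exon bases with HNRNPUL1 on the opposite strand, which had 189569 reads over the 6 libraries where TGFB1 had 34500, so its count is uncertain. HGF, a growth factor that urokinase can activate, had 0 reads in all 6 libraries.

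**Figure D4:**
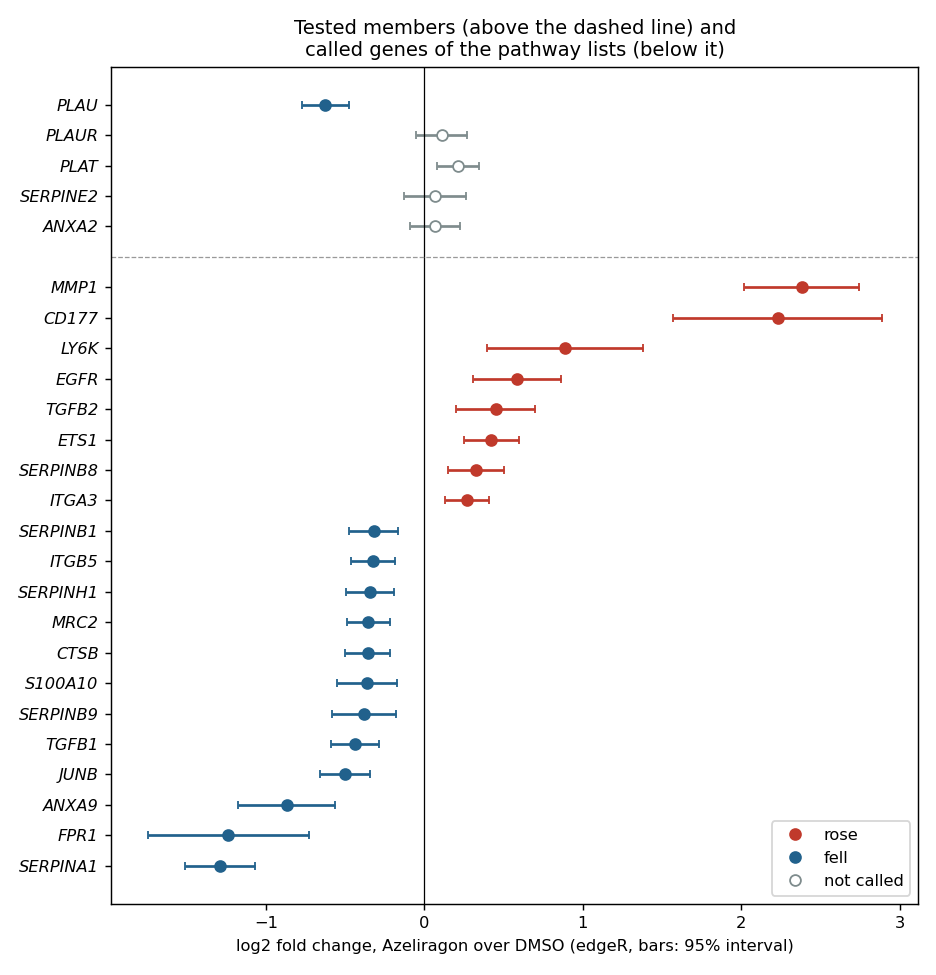
Log2 fold change, Azeliragon over DMSO, with its 95% interval from edgeR, for the 5 tested genes of the urokinase system (above the dashed line) and for the called genes of the pathway and family lists (below it). Filled points were called; PLAU lay at -0.63, and PLAT, PLAUR, SERPINE2 and ANXA2 between 0.07 and 0.21.

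Tested genes averaging 5 CPM or more were ranked by how closely their levels followed each of the 5 tested genes. The measure was the root mean square difference of log2 levels over the 6 libraries, each gene centred on its own mean. Nearest to PLAU were GSN, which encodes the actin-severing protein gelsolin (difference 0.029), PGAP3 (0.034) and APOL1 (0.037). GSN had 121 ± 3.9 CPM with Azeliragon and 184 ± 13 CPM in DMSO (SD, n = 3 each; log2 fold change -0.60; edgeR adjusted p = 0.000222). It was picked out of 10186 genes for likeness to PLAU in these same libraries. Its fall and its p-value follow from that choice and are not separate results. PGAP3 shares exon bases with ERBB2 on the opposite strand, which had 28468 reads over the 6 libraries where PGAP3 had 4440, so its count is uncertain. Nearest to PLAT were POLR1E, ALG1 and MRPS25 (0.019 to 0.023), and nearest to PLAUR were VEGFC, NTAN1 and ROBO3 (0.018 to 0.021). Nearest to SERPINE2 were DANCR, MRPL57 and NCBP2-AS2 (0.019 to 0.023), and nearest to ANXA2 were ILF2, WDR74 and MED10 (0.013 to 0.014).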

How the data were processed

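RNA from MDA-MB-231 cells after 72 h with 2 µM Azeliragon or DMSO was sequenced, 3 libraries each, per the labels. The authors deposited raw counts per gene name. Tools given, with no role stated, are STAR 2.6.1d, featureCounts 1.5.0-p3 and limma, with GRCh38, per the submitters' processing notes. Of 58735 entries 58722 matched GENCODE 29. Names turned into dates (2 entries, 0% of counts) were dropped, and among entries sharing a name the one with the higher total was read. A single read was 0.0222 to 0.0241 CPM.

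Genes passing filterByExpr were fitted with edgeR 4.0.16 (TMM, glmQLFit, glmQLFTest, treatment only; R 4.3.3), a procedure tested on simulated data. Lengths are those of APPRIS principal transcripts, chosen after the files were seen. Ratios within libraries had an exact permutation test. Replicate libraries differed by more than sampling noise. The chi-square per degree of freedom was 4.60 to 7.15 between Azeliragon libraries and 8.89 between DMSO b and c. It was 27.2 between DMSO a and b and 45.1 between DMSO a and c. Same-letter libraries did not deviate together (correlations 0.03, 0.02 and -0.04), so letters were not taken as pairs.

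Other settings were RLE, library totals, no filter, a stricter filter (1 CPM in 3 libraries, mean count 50), limma-voom (limma 3.58.1), DESeq2 1.42.0, a replicate block, GC and length trends removed with and without DMSO a, and each library left out. The 6 genes and the lists were chosen with earlier results of these data known, and 1 gene of the inhibitor and serpin lists is not reported here. Named are the 6, each list's called genes and up to 3 of its most abundant uncalled ones, overlapping genes and pseudogenes, and the 3 nearest patterns. SERPINA5, IGF2R, FOS, PLG, HGF, HNRNPUL1, ERBB2, GRK6, LNCOC1, HOOK2 and HMSD were added after their values were seen. Figures were drawn with matplotlib 3.10.9.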

Additional observations from a re-analysis of the deposited data

How the results depend on the processing

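PLAU was called in all 15 other settings and PLAUR, SERPINE2 and ANXA2 in none, and none of the 25 called genes compared changed direction. PLAT passed at log2 fold changes of 0.21 (library totals), 0.22 (no filter), 0.21 (DESeq2), 0.25 (GC and length trend removed) and 0.24 (trend removed and DMSO a left out), giving 2 called members in place of 1; with a library left out it ranged from 0.18 to 0.25, with 1 to 2 members called. Against 1009 genes called, there were 1685 with no filter, 1731 with the trend removed, 3671 with it removed and DMSO a left out, and 445 to 3916 with a library left out. The replicate block called 908 genes and kept PLAU (log2 fold change -0.62). It lost LY6K, SERPINB8, SERPINB9 and C10orf55 (edgeR adjusted p up to 0.0626), with 2 surface receptors, 1 LY6 gene and, in place of 5, 3 serpins called; the other called genes among the 64 compared stayed called.

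Inhibitors called were 1 in place of 0 with no filter, DESeq2, limma-voom or the trend removed, and surface receptors were 2 in place of 1 with no filter, DESeq2 or the trend removed. The strict filter called 1 LY6 gene in place of 2, because CD177 did not pass that filter and was not tested there. The trend removed gave 2 annexins in place of 1 and 4 AP-1 and ETS factors in place of 2. With DMSO a left out as well there were 1 inhibitor, 3 surface receptors, 10 clearance receptors and partners and 5 substrates. There were also 4 LY6 genes, 4 annexins and 5 AP-1 and ETS factors, in a fit that called 22.2% of all genes tested. With a library left out, calls ranged from 1 to 3 for plasmin-forming proteases, 0 to 1 for inhibitors, 0 to 5 for surface receptors, 2 to 8 for clearance receptors and partners, 2 to 4 for substrates, 1 to 3 for LY6 genes, 1 to 4 for annexins, 1 to 6 for serpins and 1 to 7 for AP-1 and ETS factors. Fits with a library left out use 5 libraries, and 29132 genes were tested with no filter and 12624 with the strict filter, against 16081. The cause of the other changes was not tested.

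Signs turned with a library left out for 13 genes that were not called with all 6 libraries; of these JUND was called as lower without DMSO a, and ITGB1 as higher with the trend removed and DMSO a left out. Their log2 fold changes then ranged from -0.0020 to 0.13 for ANXA2, -0.11 to 0.030 for BDNF, -0.041 to 0.34 for F12, -0.095 to 0.048 for LRPAP1 (-0.31 and called with the trend removed and DMSO a left out), -0.077 to 0.0098 for ANXA2P2 and -0.64 to 0.92 for AC087385.1, a pseudogene inside ANXA2. They ranged from -0.018 to 0.14 for DANCR, -0.034 to 0.15 for MRPL57 (-0.015 with the trend removed and DMSO a left out), -0.019 to 0.11 for ILF2, -0.016 to 0.13 for WDR74, -0.19 to 0.17 for SERPINF1, -0.039 to 0.14 for ITGB1 and -0.21 to 0.017 for JUND. Depth limits SERPINB2, which had too few reads for a test.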

Other observations

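Families of the 6 genes, also listed with earlier results of these data known, were read in the same way. Of 12 annexins 10 were tested and 1 fell, ANXA9, at 4.05 ± 0.42 CPM with Azeliragon and 7.40 ± 0.86 CPM in DMSO (SD, n = 3 each; log2 fold change -0.87, SE 0.14; edgeR adjusted p = 0.00290), called whichever library was left out. None rose by edgeR, DESeq2 or limma-voom, and 1 had an unadjusted p under 0.05 as higher. ANXA5 (log2 fold change 0.08) and ANXA6 (-0.19) were not called, and without DMSO a 4 annexins were called, ANXA6 among them (edgeR adjusted p = 0.00145). That fit called 23.7% of all genes tested. Of 15 genes of the LY6 and PLAUR family 9 were tested and 2 rose. CD177, a neutrophil surface protein, had 1.72 ± 0.23 CPM with Azeliragon and 0.36 ± 0.07 CPM in DMSO (log2 fold change 2.23, SE 0.30; edgeR adjusted p = 0.000913). LY6K had 2.58 ± 0.32 CPM with Azeliragon and 1.39 ± 0.30 CPM in DMSO (edgeR adjusted p = 0.0364), and without Azeliragon a, b or c or DMSO b its call was lost (up to 0.156), leaving 1 in the family. LY6K shares 2876 exon bases with LNCOC1 on the opposite strand, which had 120 reads over the 6 libraries where LY6K had 513, so its count is uncertain. None fell by edgeR, DESeq2 or limma-voom, and 1 had an unadjusted p under 0.05 as lower.

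Of 21 serpins reported here 10 were tested, 1 rose and 4 fell. SERPINA1, which encodes alpha-1 antitrypsin, had 20.9 ± 2.3 CPM with Azeliragon and 51.0 ± 5.0 CPM in DMSO (SD, n = 3 each), a 2.45-fold fall (edgeR adjusted p = 2.59e-05) called whichever library was left out. SERPINH1, a collagen chaperone, fell 1.27-fold, SERPINB1 fell 1.25-fold and SERPINB9, the granzyme B inhibitor, had 17.7 ± 0.25 CPM with Azeliragon and 23.1 ± 2.3 CPM in DMSO. SERPINB8 rose 1.26-fold. Without Azeliragon a, b or c or DMSO b, SERPINA1 was the only 1 of these called. The SERPINB8 call was also lost without DMSO c. SERPINB8 shares 370 exon bases with HMSD on the same strand. HMSD had 1631 reads over the 6 libraries where SERPINB8 had 6390, so the count of SERPINB8 is uncertain. SERPINB6 had 101 ± 3.6 CPM with Azeliragon and 121 ± 9.6 CPM in DMSO, without overlap, and was not called (edgeR adjusted p = 0.0595). In 7 of 15 other settings, DESeq2 among them, SERPINB6 was called as lower. All 14 AP-1 and ETS factors, a group that holds known regulators of PLAU, were tested, 1 rose and 1 fell. At an unadjusted p under 0.05, 1 was higher and 4 were lower. DESeq2 and limma-voom also called FOS as lower, a gene named after its values were seen. In edgeR its log2 fold change was -0.50 (edgeR adjusted p = 0.0521), and its groups overlapped. JUNB had 76.0 ± 4.5 CPM with Azeliragon and 107 ± 6.9 CPM in DMSO (edgeR adjusted p = 0.00154), called whichever library was left out, and overlaps HOOK2 on the opposite strand, so its count is uncertain. ETS1 had 267 ± 12 CPM with Azeliragon and 199 ± 22 CPM in DMSO (edgeR adjusted p = 0.00763), a call lost without Azeliragon a or DMSO b (up to 0.0649), each of which left 1 in the list. Without DMSO a 7 factors were called, and without DMSO c 4. Over all tested genes these fits called 23.7% and 4.94%.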
